A study of Mus spretus with 8 samples.

Results

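The cytosolic ribosomal proteins are the protein part of the 40S and 60S subunits of the ribosome, the particle that makes proteins in the cytosol. Members were taken by gene symbol from the probe annotation: Rps or Rpl followed by a number, with or without a final a, x or y, together with Rplp0, Rplp1, Rplp2 and Rpsa. Pseudogenes and the S6 kinase genes (Rps6k) were left out. This gave 68 genes of the 22471 named genes on the array, 24 of the small and 44 of the large subunit, measured by 158 of the 42957 probes. Of these genes, 48 had several probes (at most 12, for Rpl23) and 20 had 1. Each gene was represented by its brightest probe, the 1 with the highest mean signal over the 8 arrays.

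Expression was measured on 1-colour arrays in total RNA of whole liver from male Mus spretus of the inbred strain SPRET/EiJ, a mouse species distinct from the laboratory mouse. The control group held 4 mice on Harlan feed with corn oil. The DDE group held 4 mice on the same feed and oil with p,p'-DDE, a long-lived metabolite of the insecticide DDT, at 450 mg/kg. Both ate their feed for 30 days. The labels give the DDE mice an age of 7 weeks and give no separate age for the controls. The labels number 4 arrays in each group, and only 1 strain, sex, dose and time were measured. No label ties an array to a mouse, so 1 mouse per array is taken from the 4 arrays and 4 mice of each group. Each value is a log2 signal as the authors deposited it.

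Ribosomal protein genes are among the most highly expressed genes of a growing or secreting cell, and liver, which exports most plasma proteins, holds many ribosomes. The proteins assemble on ribosomal RNA in near-equal numbers, and their mRNAs share a 5′ terminal oligopyrimidine (TOP) motif through which the kinase mTORC1 controls their translation. Their mRNA levels are therefore usually described together. Some of them, such as Rplp0, Rps18, Rpl13a and Rpl19, are widely used as reference genes in quantitative PCR.

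Patches of neighbouring spots that deviated together on an array, called stained here, covered from 0.521% of the spots (DDE 1) to 9.50% (control 4). Between 0 and 12 ribosomal protein probes per array lay in them. The 7 measured hepatocyte markers gave no call in limma (0 also at an unadjusted p under 0.05), and their summed linear signal ranged from 368892 to 386822 in the controls and from 306139 to 381740 in the DDE livers. Of 42 measured markers of 7 other cell types, 1 was called, the stellate cell gene Reln, whose signals of 7.09 to 7.64 were near background. The 5 cholangiocyte markers summed to 1034 to 14720 in the controls and 911 to 1046 in the DDE livers, and the 6 neutrophil markers to 1524 to 13608 and 1804 to 4153, so 1 or more control livers reached far higher totals. Their part in the results below was not tested. In whole liver RNA, fewer cells of a type and less RNA per cell cannot be told apart.

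Nearly all members were bright. The brightest probe lay above background (the level below which 95% of the probes for olfactory and vomeronasal receptors fell, 7.55 to 7.81 by array) on all 8 arrays for 67 of 68 genes. The exception was Rpl21, a protein of the large subunit, whose brightest probe averaged 7.43 in the controls and 7.22 in the DDE livers. Over the 158 probes, 139 were above background on all arrays and 8 on none. The median over the genes of the mean signal was 14.64, against 7.83 over all named genes.

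Many members also came close to the top of the scale, where 16 was the highest value of each array. A value within 0.5 of that top was reached on at least 1 array by 30 probes, and by the brightest probe of 22 genes. The 5 genes with the highest mean signal were Rpl41, Rps14, Rpl10, Rpl37a and Rps20, and their changes lay between -0.10 and 0.06. There a rise could not have been seen in full. The 5 genes with the lowest mean signal were Rpl21, Rps3, Rpl5, Rpl23a and Rps21. Signals of different probes depend on the probe as well as on the mRNA, so this order is not an order of mRNA amounts.

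Exposure to DDE moved few of the members past the test. With limma (moderated test, Benjamini-Hochberg adjustment over all 42957 probes, threshold 0.05), 8 of 158 probes were called, 7 higher and 1 lower in the DDE livers. That is 5.06% of the members' probes, beside 3.00% of all probes (2.34% higher and 0.661% lower). Bright probes were called more often throughout the table: of probes with a mean signal of 10 or more, 8 of 131 ribosomal protein probes were called (6.11%), beside 8.22% of all 6536. At the brightest probe, 3 of 68 genes were called, all higher, namely Rps19, Rpl17 and Rpl15. This is 4.41% of the genes, beside 3.35% of all named genes. The count changed with single arrays: 1 of the 158 probes was called without control 2 or without DDE 2 (Rpl17 probe 10890 both times), 2 without control 3, 4 without DDE 1 or without DDE 3, 6 without control 4, 9 without control 1 and 10 without DDE 4.

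As a group the genes were only slightly higher in the DDE livers. The median change of the 68 genes was 0.145 on the log2 scale, a 1.11-fold difference, with 44 genes higher and 24 lower. It was 0.085 without control 4 and 0.22 without DDE 4, and the median over all 158 probes, 0.20, was 0.11 without control 4. The median over all named genes was 0.015, and over all probes with a mean of 10 or more it was 0.145, beside 0.275 for the 131 ribosomal protein probes of that brightness. The median of the 68 genes on each array was 14.73, 14.49, 14.53 and 14.08 in controls 1 to 4, and 14.69, 14.81, 14.88 and 14.61 in DDE 1 to 4. The groups overlapped, since control 1 lay above DDE 1 and DDE 4. Control 4 held the lowest value of 32 genes and DDE 3 the highest of 34. The direction of the group median was not kept by every scaling. It was 0.04 after cyclic loess. After removal of a trend along the array that is described further on, it was -0.02 (33 genes higher, 35 lower). Both also moved the median of all probes with a mean of 10 or more, from 0.145 to -0.06 and to -0.03. The removal takes out the median deviation of bright probes on each array, so it does not test the direction of the members alone.

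**Figure D1:**
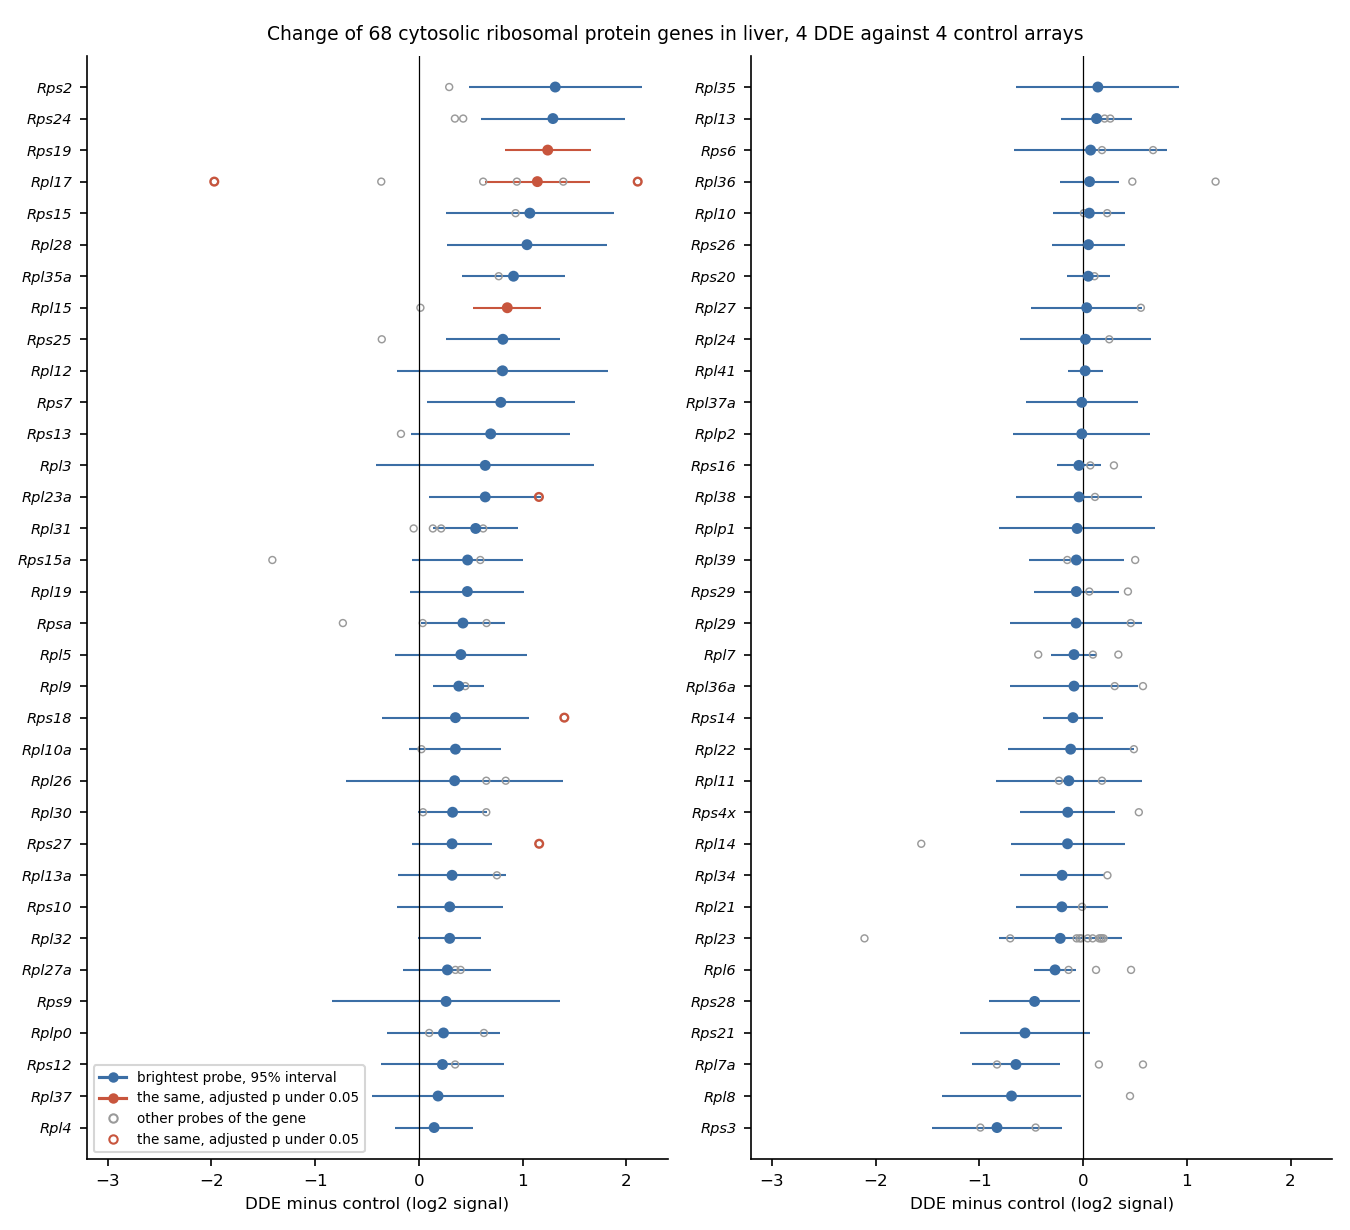
Change of each of the 68 ribosomal protein genes (DDE minus control, log2 signal, horizontal axis), sorted from the largest rise to the largest fall. Filled points are the brightest probe with its 95% interval from limma, open points are the gene's other probes, and red marks an adjusted p under 0.05. The 3 red filled points are Rps19, Rpl17 and Rpl15, and the brightest probes run from 1.31 (Rps2) to -0.83 (Rps3).

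The changes of single genes were small against their error. At the brightest probe, 49 of 68 genes changed by less than 0.5 in either direction, and for 49 the 95% interval included 0. For 44 genes the interval lay wholly within 1 of 0, but 20 of these had a value within 0.5 of the top of the scale, where a rise may not be seen in full. The brightest probes of 11 genes had no overlap between the groups, all higher in DDE (16.2% of the genes), beside 8.48% of all named genes higher and 4.06% lower without overlap, and beside 16.7% of all probes with a mean of 10 or more that were higher without overlap. At an unadjusted p under 0.05, 14 genes were higher (20.6%, beside 11.4% of all named genes) and 5 lower (7.35%, beside 4.57%). Of all probes with a mean of 10 or more, 23.5% were higher and 9.91% lower at that p.

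The small subunit had 3 of the called probes. Rps19, a protein needed for maturation of the small subunit RNA and mutated in Diamond-Blackfan anaemia, had 1 probe, with signals of 12.96, 12.49, 12.94 and 12.43 in controls 1 to 4 and of 13.66, 13.91, 14.25 and 13.97 in DDE 1 to 4. Every DDE liver was above every control. The rise was 1.24 on the log2 scale (SE 0.18, 2.37-fold, limma adjusted p = 0.0186). Among the alternatives that ended the call were those without control 2 (adjusted p = 0.0599) and without DDE 2 (adjusted p = 0.064), and that without control 4 and DDE 4 together (adjusted p = 0.0512).

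Rps27, a zinc-finger protein of the small subunit, had 2 probes, and the dimmer one was called. That probe read 14.64, 14.25, 14.37 and 13.89 in the controls and 15.08, 15.43 and 15.78 in DDE 1 to 3, with DDE 4 between DDE 2 and DDE 3 and no overlap between the groups. The estimate was 2.23-fold higher (limma adjusted p = 0.0321). DDE 3 and DDE 4 were near the top of the scale, where a rise may not be seen in full. Without DDE 2, DDE 3, DDE 4, control 2 or control 3 the limma adjusted p rose to between 0.055 and 0.0966. The brighter probe of Rps27 differed by 0.32 (limma adjusted p = 0.449), with 2 DDE arrays near the top.

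Rps18, a protein of the head of the small subunit, was called at the dimmer of its 2 probes, with 12.98, 12.75, 12.21 and 12.09 in the controls and 13.67, 13.84, 14.48 and 13.65 in the DDE livers. The groups did not overlap there, and the rise was 1.40 (SE 0.27, 2.64-fold, limma adjusted p = 0.042). The call ended in 7 of the 8 fits that left out 1 array, all but that without control 1, with limma adjusted p up to 0.116. The brighter probe of Rps18 gave 0.35 (95% interval -0.36 to 1.06), and its groups overlapped.

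The large subunit had the other 5 called probes, of which 3 belonged to Rpl17. Rpl15, which is needed for maturation of the large subunit RNA, read 14.31, 14.19, 14.28 and 13.87 in the controls and 14.72, 15.08, 15.07 and 15.19 in the DDE livers at its brightest probe. The groups did not overlap, and the rise was 0.85 (SE 0.14, 1.81-fold, limma adjusted p = 0.028). The call ended without DDE 2, DDE 3, control 1, control 2 or control 3 (limma adjusted p = 0.0501 to 0.0916) and after removal of the trend along the array (0.59, adjusted p = 0.235). The second probe of Rpl15 had a mean signal of 9.36 in the controls and 9.38 in the DDE livers.

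Rpl23a, which sits at the rim of the exit tunnel where factors bind the emerging chain, rose at the dimmer of its 2 probes. Controls read 10.66, 10.19, 10.52 and 10.36, and DDE livers 11.44, 11.77, 11.99 and 11.16. With no overlap, the difference was 1.16 (SE 0.20, 2.23-fold, limma adjusted p = 0.031). It lost the call in 7 of 8 fits with 1 array left out, all but that without DDE 4, with limma adjusted p up to 0.0975. The brighter probe of Rpl23a was 0.64 higher (limma adjusted p = 0.236), with overlapping groups.

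**Figure D2:**
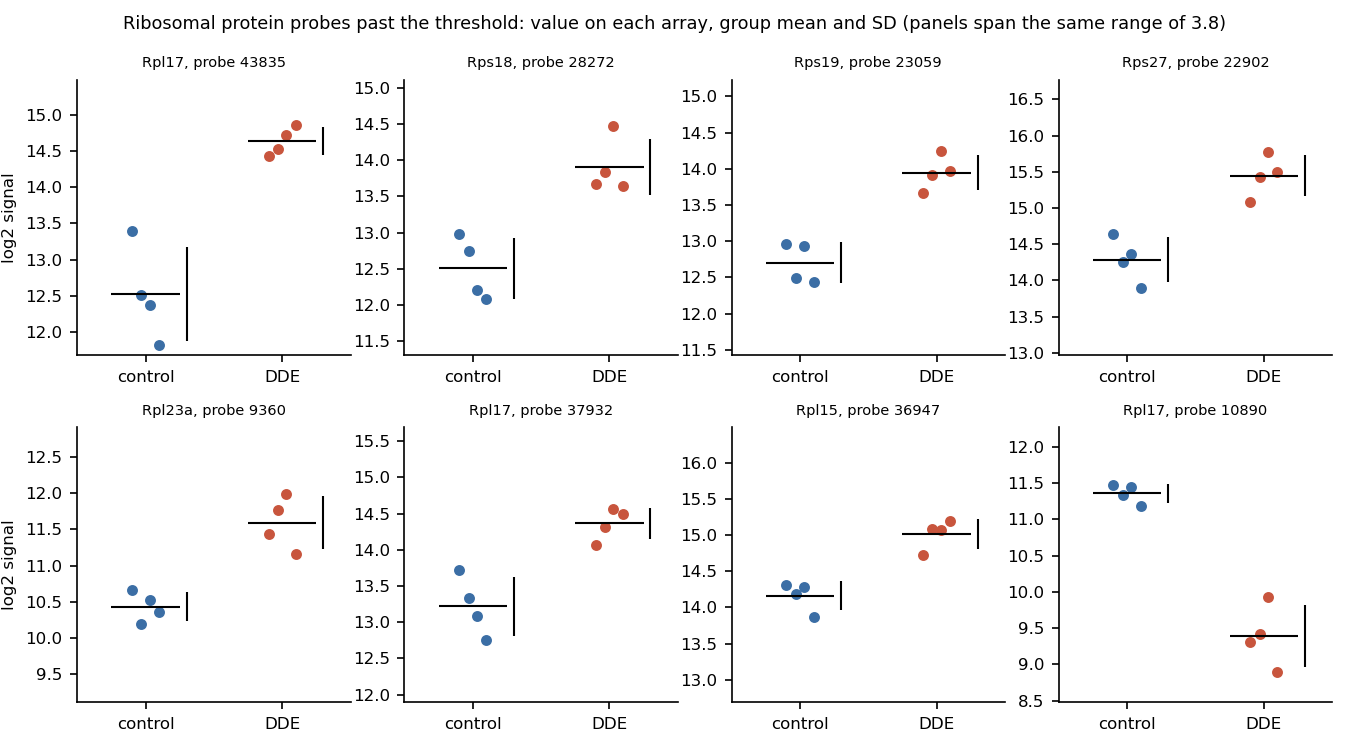
Log2 signal (vertical axis) of the 8 ribosomal protein probes with a limma adjusted p under 0.05, for each of 4 control and 4 DDE arrays, with the group mean as a horizontal line and 1 SD either side of it as a vertical line. In 7 panels all DDE points lie above all control points, and in that of Rpl17 probe 10890 all DDE points (8.89 to 9.93) lie below all control points (11.18 to 11.47).

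Rpl17, a protein that lines the exit tunnel of the large subunit, gave the widest disagreement between probes of 1 gene. It had 7 probes, of which 5 were higher and 2 lower in the DDE livers, and 3 were called in limma. They are named here by their number on the array, and their sequences were not used here. Probe 43835 read 13.40, 12.51, 12.37 and 11.82 in the controls and 14.43, 14.53, 14.72 and 14.86 in the DDE livers. Its rise of 2.11 (SE 0.31, 4.32-fold, adjusted p = 0.0215) was the largest of all 158 probes. The call of probe 43835 ended without DDE 1, DDE 2, DDE 3, control 2 or control 3 (adjusted p = 0.0568 to 0.0695).

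Probe 37932 of Rpl17, the brightest, read 13.72, 13.33, 13.08 and 12.75 in the controls and 14.07, 14.32, 14.56 and 14.50 in the DDE livers. Its groups did not overlap, and it was 1.14 higher (SE 0.22, 2.21-fold, limma adjusted p = 0.0417). That call was kept in 7 of 18 alternatives. It ended in 7 of 8 fits with 1 array left out, all but that without control 1, with limma adjusted p up to 0.116, and after removal of the trend along the array (0.87, adjusted p = 0.0605).

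Probe 10890 of Rpl17 went the other way. It read 11.47, 11.34, 11.45 and 11.18 in the controls and 9.31, 9.42, 9.93 and 8.89 in the DDE livers, all well above background and free of stains. It fell by 1.97 on the log2 scale (SE 0.21, 3.92-fold lower, limma adjusted p = 0.00911). This was the smallest adjusted p among the 158 probes, and it passed whichever of the 8 arrays was left out (adjusted p = 0.00884 to 0.039). It also held after removal of the trend along the array (-1.92, adjusted p = 0.00168).

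The other 4 probes of Rpl17 were not called. Probe 1462 was 1.39 higher (adjusted p = 0.114) and probe 2002 was 0.94 higher (adjusted p = 0.0647), both with no overlap, and probe 25455 was 0.62 higher (adjusted p = 0.379) in limma. Probe 20500 was 0.36 lower, with 13.71, 13.74, 13.90 and 13.29 in the controls and 13.30, 13.32, 13.57 and 13.00 in the DDE livers (limma adjusted p = 0.381). The median of the 7 changes was 0.94. The direction of Rpl17 thus depended on the probe, and the difference between its probes was not tested.

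**Figure D3:**
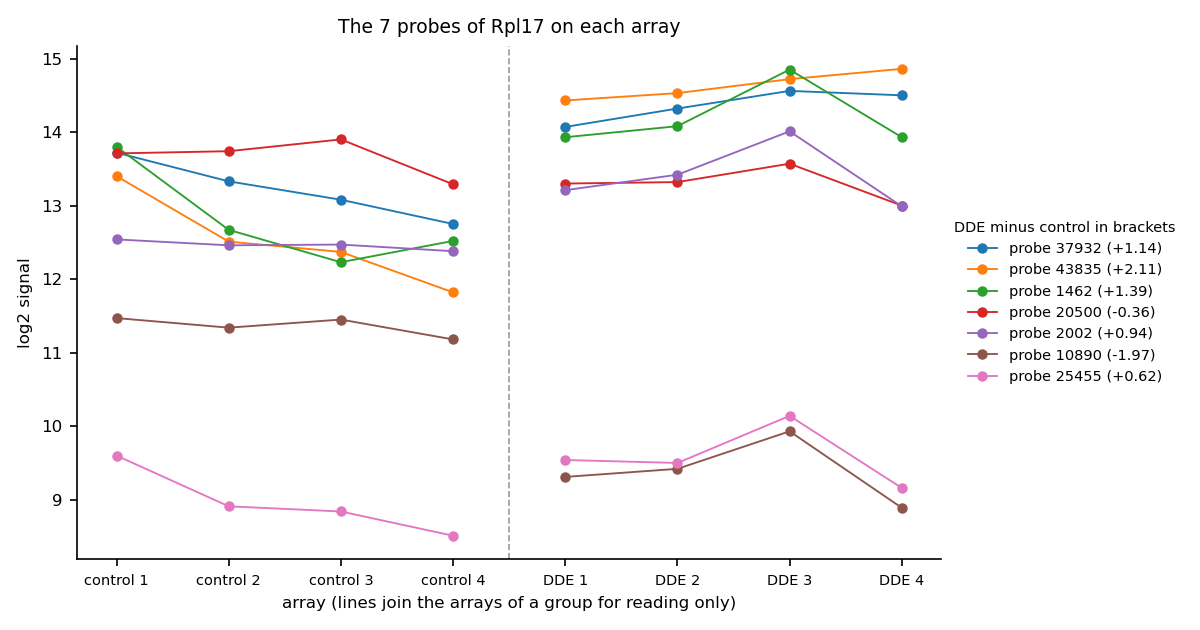
Log2 signal (vertical axis) of the 7 probes of Rpl17 on each of the 8 arrays (horizontal axis), 1 line per probe. The 5 probes that are higher in DDE and the 2 that are lower can be followed across the groups, and probe 10890 drops from between 11.18 and 11.47 to between 8.89 and 9.93.

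Probes disagreed in 10 further genes, where the changes of 2 probes of a gene were over 1 apart on the log2 scale. Of 42 genes with several probes of mean 10 or more, 24 had all of these higher in the DDE livers, 0 had all lower and 18 had some on each side. The median gap between the most different of these probes was 0.495 in the 42 genes. Over all 636 named genes with several such probes it was nearly the same, 0.473. In the 10 further genes the gaps over all probes were 2.31 in Rpl23, 2.00 in Rps15a, 1.41 in Rpl14, 1.41 in Rpl7a, 1.39 in Rpsa, 1.22 in Rpl36, 1.17 in Rps25, 1.14 in Rpl8, 1.05 in Rps18 and 1.02 in Rps2.

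In 4 of these genes the gap involved a probe that was near background on most arrays and raised on 1 or 2 control arrays. Rpl14, a large subunit protein, had a probe at 7.50, 7.33, 7.43 and 13.76 in the controls and 7.50, 7.45, 7.52 and 7.31 in the DDE livers. Its value on control 4 lay in a stained patch, and without stained spots the difference of that probe was 0.03. Rpl23, which sits beside the subunit interface, had 1 probe at 7.21, 7.19, 12.49 and 10.61 in the controls and at 7.18 to 7.33 in the DDE livers. Another 9 of its 12 probes were dim, and over these 10 dim probes 4 of 80 values exceeded 8, while both bright probes of Rpl23 differed by -0.22 and 0.16. Rps15a, a protein of the small subunit, had such a probe at 7.33, 7.29, 10.08 and 9.92 in the controls, and its difference went from -1.41 to -0.07 without stained spots. In Rps25, which some viral messages need for internal initiation, 1 probe read 8.74 on control 2 and 7.25 or less on the other 3 controls.

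In the other discordant genes all or most probes were bright. Rpl7a, a large subunit protein, had 4 bright probes with changes of -0.65, 0.15, -0.83 and 0.58. Rpsa, a small subunit protein also known as the laminin receptor, had 0.43, 0.65 and -0.73 at its 3 bright probes, none of them called. The 3 probes of Rpl36 were all higher, by 0.06 at the brightest, which was near the top on all 8 arrays, and by 0.48 and 1.28 at the dimmer ones. Rpl8, which lies close to the peptidyl transferase centre, had -0.69 and 0.45.

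The largest rises at the brightest probe were in Rps2, Rps24, Rps19, Rpl17 and Rps15, and 3 of these did not pass the test. Rps2, which sits at the entry of the mRNA channel, read 14.48, 13.29, 13.23 and 12.89 in the controls and 14.42, 14.85, 15.23 and 14.65 in the DDE livers. Control 1 overlapped the DDE values, and the difference was 1.31 (SE 0.36, limma adjusted p = 0.115). Of the DDE values of Rps2, 2 lay in stained patches, and so did 2 of those of Rps24. Without stained spots the largest rise at a brightest probe was 1.24, that of Rps19. Without control 1 the difference of Rps2 was 1.65 and passed the threshold (adjusted p = 0.0291). Its other probe gave 0.29.

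Rps24, another gene mutated in Diamond-Blackfan anaemia, read 15.08, 14.27, 14.29 and 13.58 in the controls and 15.34, 15.70, 15.75 and 15.60 in the DDE livers. The groups did not overlap, and the difference was 1.29 (SE 0.30, limma adjusted p = 0.0725, and 0.0305 without control 1). It was 0.97 after removal of the trend along the array. There were 3 DDE values near the top of the scale, where a rise may not be seen in full. Rps15, which is needed for export of the small subunit from the nucleus, was 1.07 higher at its brightest probe (limma adjusted p = 0.182) and 0.93 at its other one (adjusted p = 0.0566). The first of these overlapped between the groups.

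The largest falls at the brightest probe were in Rps3, Rpl8, Rpl7a, Rps21 and Rps28, and none passed the test. Rps3, a protein of the mRNA entry channel, read 11.91, 11.47, 12.11 and 10.95 in the controls and 10.53, 10.76, 11.14 and 10.69 in the DDE livers. DDE 3 overlapped control 4, and the difference was -0.83 (95% interval -1.46 to -0.20, limma adjusted p = 0.179). All 3 probes of Rps3 were lower in the DDE livers, by -0.83, -0.99 and -0.46, with unadjusted limma p of 0.0163, 0.0366 and 0.0439. Of these only the brightest, at -0.83, had a mean signal of 10 or more.

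Rpl7a read 15.29, 15.16, 15.02 and 14.59 in the controls and 14.41, 14.40, 14.61 and 14.05 in the DDE livers at its brightest probe, a difference of -0.65 (limma adjusted p = 0.124). It passed the threshold in 5 of 18 alternatives, among them removal of the trend along the array (-0.94, adjusted p = 0.0122) and the fit without control 4 (-0.79, adjusted p = 0.0494). Rpl8 differed by -0.69 (limma adjusted p = 0.315), and passed after removal of the trend (-0.94, adjusted p = 0.00888). Rps21 differed by -0.56 and Rps28, which lies near the mRNA exit, by -0.47, each with overlap between the groups.

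The 2 subunits were alike in having few calls. Of the 24 small subunit genes 1 was called at the brightest probe, and the median change was 0.28. Of the 44 large subunit genes 2 were called, and the median change was 0.10. The difference between the subunits was not tested. In the stalk of the large subunit, which binds elongation factors, Rplp0 differed by 0.24 (95% interval -0.31 to 0.79), Rplp1 by -0.06 and Rplp2 by -0.01. Rps6, the substrate of the S6 kinases, differed by 0.07 (95% interval -0.66 to 0.81), with DDE 2 at 13.30 and the other DDE livers at 14.58, 14.67 and 14.15. Of genes carried on the X chromosome, Rps4x differed by -0.15 and Rpl10 by 0.06.

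For several genes that serve as PCR references the interval of the difference was wide. These were chosen after their values were seen. At the brightest probe the difference was 0.47 for Rpl19 (95% interval -0.08 to 1.02), 0.32 for Rpl13a (-0.20 to 0.84), 0.15 for Rpl4 (-0.23 to 0.52) and -0.07 for Rps29 (-0.47 to 0.34). None of these probes passed the test, which does not show that the genes were equal between the groups. Of the other references named above, Rplp0 was not called, and Rps18 was called at its dimmer probe but not at its brightest.

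The difference between the groups varied with the brightness of the probe. Among ribosomal protein probes the median change was -0.01 at a mean signal below 10 (27 probes) and 0.59 at 10 to 12 (8 probes). It was 0.57 at 12 to 13 (14 probes), 0.46 at 13 to 14 (39 probes), 0.23 at 14 to 15 (38 probes) and 0.04 at 15 or more (32 probes). None of these 32 brightest probes was called (at an unadjusted limma p under 0.05 there were 4). Over all probes of the table the medians of the same 6 ranges were 0.01, 0.18, 0.18, 0.16, 0.07 and -0.03. After removal of the trend along the array the 5 brighter ranges of ribosomal protein probes had 0.32, 0.35, 0.22, 0.02 and -0.17, beside 0.00, 0.02, -0.01, -0.11 and -0.22 for all probes. From 12 upward the median fell with each brighter range in the members and in the whole table alike.

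Within a gene the same order was seen. In 31 of the 42 genes with several probes of mean 10 or more (73.8%), the dimmest of these probes rose more, or fell less, than the brightest. Over all 636 named genes with several such probes this held for 360 (56.6%). Examples are Rps18, Rps27, Rpl36 and Rpl23a, while Rps2, Rps24 and Rpl15 went the other way, Rpl15 with a dimmer probe under 10. Representing each gene by its brightest probe with no value within 0.5 of the top gave a median change of 0.30 over the 55 genes that had one, against 0.145 over 68 genes.

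**Figure D4:**
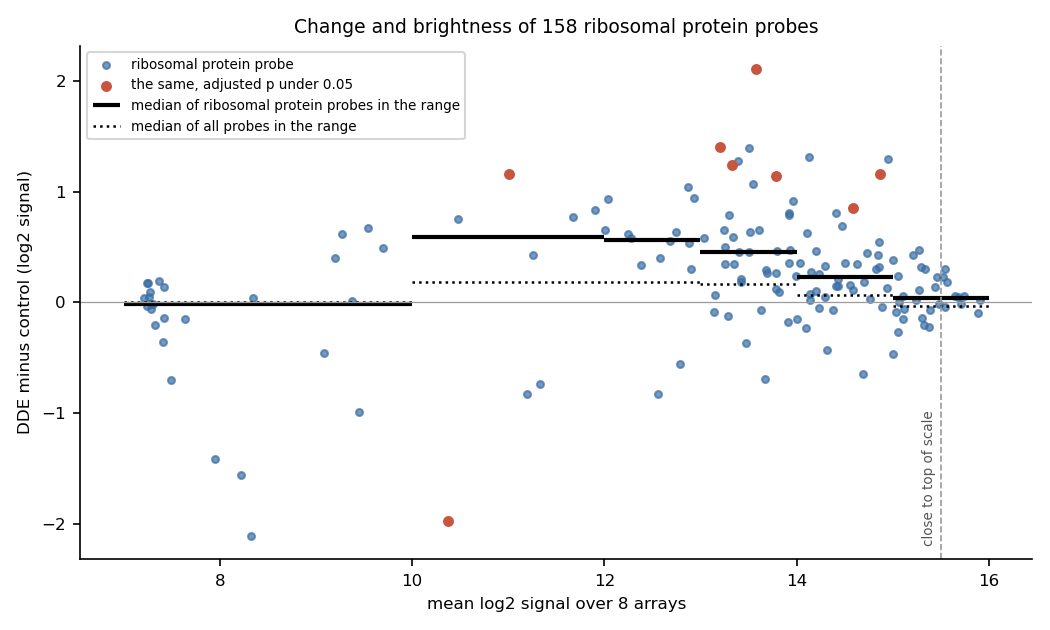
Change (DDE minus control, log2 signal, vertical axis) of the 158 ribosomal protein probes against their mean log2 signal over 8 arrays (horizontal axis). Horizontal lines give the median change in 6 ranges of brightness for ribosomal protein probes and for all probes, and the ribosomal protein median falls from 0.59 at means of 10 to 12 to 0.04 at means of 15 or more.

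Bright probes also shifted with their place on the array, in the order of the feature numbers, and this was seen in all probes of the table. The array was divided into 4 equal parts. In parts 1 to 4, ribosomal protein probes with a mean of 10 or more deviated from their own mean over 8 arrays by a median of -0.25, -0.36, -0.44 and -0.96 on control 4, and by -0.49, 0.05, 0.16 and 0.34 on DDE 4. Control 3 went from -0.02 to -0.51, and control 1 from 0.02 to 0.35. The median difference between DDE and control over these probes was 0.16, 0.26, 0.24 and 0.44 in the 4 parts, beside 0.02, 0.06, 0.29 and 0.26 over all probes of that brightness.

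**Figure D5:**
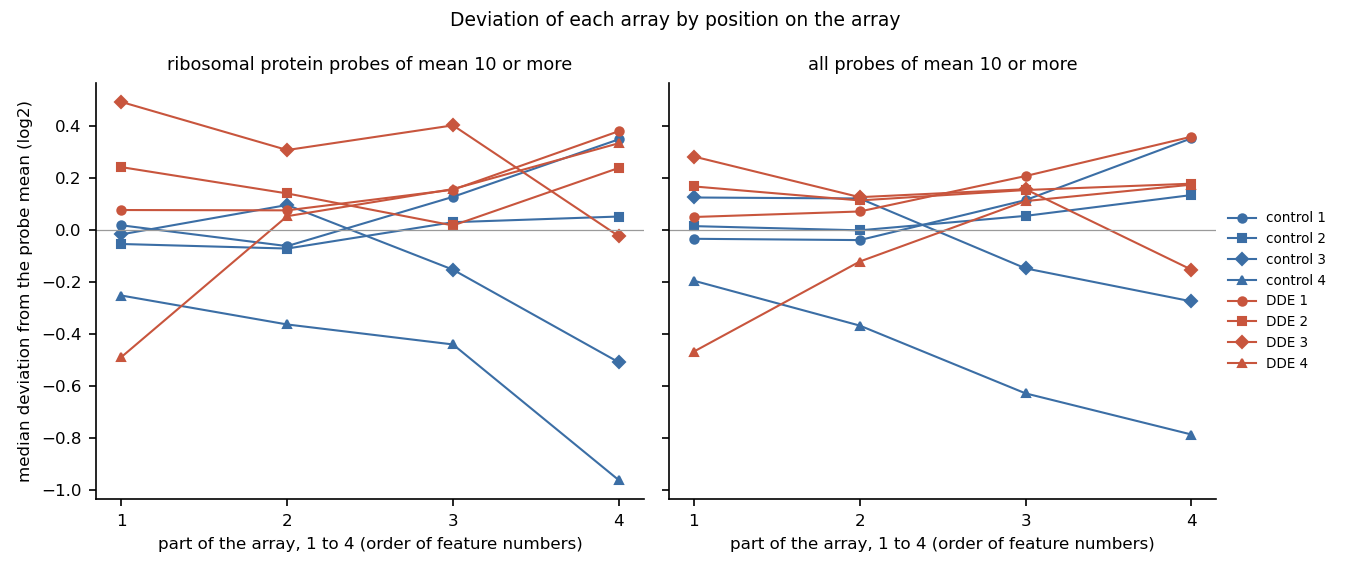
Median deviation from the probe's own mean (log2, vertical axis) in 4 equal parts of the array (horizontal axis), for ribosomal protein probes and for all probes with a mean of 10 or more, 1 line per array. Control 4 runs down to -0.96 and DDE 4 up from -0.49 to 0.34 in the ribosomal protein probes, and the lines of all probes run alike.

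The trend was a running median over 1501 probes with a mean of 10 or more, so its removal also took out the level of bright probes. When it was taken from each array (an alternative added after seeing the data), 19 ribosomal protein probes were called in limma, 14 higher and 5 lower. This is 12.0% of them, beside 4.60% of all probes. Among probes with a mean of 10 or more it was 19 of 131, beside 15.9% of all. Of the 8 probes called on the values as deposited 6 remained. The genes at the brightest probe were 5 higher, namely Rps19, Rps15, Rps24, Rpl28 and Rpl23a, and 2 lower, Rpl7a and Rpl8. This is 10.3% of the genes, beside 5.18% of all named genes and 15.9% of all probes with a mean of 10 or more. With cyclic loess, 15 probes were called, 9 higher and 6 lower (9.49%, beside 4.26% of all probes; among probes with a mean of 10 or more, 14 of 131 beside 12.5% of all), and over the whole table the calls were split into 910 higher and 920 lower, against 1005 and 284 on the values as deposited. Without control 4 and DDE 4, the arrays with the strongest trends, 11 probes were called, 8 higher and 3 lower (6.96%, beside 3.98% of all probes; among probes with a mean of 10 or more, 11 of 131 beside 10.6% of all), and 4 of the 8 remained.

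Genes around the ribosome were read from lists chosen with earlier results known. Beside the 3.35% of all named genes that limma called, 11 of 234 genes of the lists were called, 10 higher and 1 lower. Of all probes with a mean of 10 or more, 8.22% were called. Of those probes 60.7% had a positive difference, with a median change of 0.145. The lists were not matched for brightness. Of the ribosomal proteins whose symbols do not follow the pattern, Fau, which carries a ubiquitin-like domain, was on the table and differed by 0.24 (adjusted p = 0.643). Of 8 paralogs of ribosomal protein genes, Rps27l was called, with an estimate of 2.54-fold higher (limma adjusted p = 0.0494) and DDE 3 near the top of the scale. Its signals were 14.68, 13.88, 13.85 and 13.64 in the controls and 15.19, 15.07, 15.89 and 15.28 in the DDE livers. The call was kept in 4 of 18 alternatives. It ended in each of the fits without control 2, 3 or 4 or without any 1 of the DDE arrays (adjusted p up to 0.133). It also ended without stained spots (adjusted p = 0.0553), after removal of the trend along the array (1.04, adjusted p = 0.112) and without control 4 and DDE 4 together (adjusted p = 0.122). Rpl36al, a paralog of Rpl36a, differed by -1.46 without overlap (limma adjusted p = 0.0513).

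Of 34 initiation factor genes 5 rose and none fell past the test in limma (at an unadjusted p under 0.05, 7 and 1). Their median change was 0.23, and 0.08 after removal of the trend along the array. Eif6, which keeps the large subunit from joining too early, read 11.37, 11.41, 11.44 and 10.93 in the controls and 12.37, 12.61, 12.73 and 12.55 in the DDE livers, a rise of 1.28 (SE 0.14, limma adjusted p = 0.00911). Eif2a, which can bring initiator tRNA to the small subunit, rose by 1.25 from signals of 7.79 to 8.13 (limma adjusted p = 0.00804). Eif5a, Eif4a2 and Eif3e rose by 1.09, 1.06 and 0.97. The calls of Eif6 and Eif2a held in each of the 8 fits with 1 array left out, while Eif5a, Eif4a2 and Eif3e each lost the call without DDE 1, DDE 2, DDE 3, control 2 or control 3, among others (adjusted p = 0.0598 to 0.121).

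Of 17 elongation factors and other products of TOP mRNAs, 2 rose, Eif3e and the nucleolar chaperone Npm1 (0.67, limma adjusted p = 0.0428). A positive difference was seen in 16 of 17, beside 60.7% of all probes with a mean of 10 or more. The median of the 17 was 0.275, and 0.115 after removal of the trend along the array. Npm1 kept its call in 4 of 18 alternatives. Of 63 genes of ribosome assembly, 2 rose, Npm1 and the nucleolar protein Nop16 (1.19, limma adjusted p = 0.0124), and the median change was 0.06. Of 15 genes of RNA polymerase I, which makes the ribosomal RNA, 1 rose, Taf1d (0.75, limma adjusted p = 0.0251). Of 77 mitochondrial ribosomal protein genes 1 rose, Mrpl30 (1.04, limma adjusted p = 0.0252), with a median of 0.28 (0.12 after removal of the trend). Without DDE 2 the limma adjusted p of all of these passed above 0.05, to 0.121 for Eif3e, 0.112 for Npm1, 0.0503 for Nop16, 0.0817 for Taf1d and 0.0711 for Mrpl30, and apart from Nop16 they also lost the call without DDE 3, control 2 or control 3.

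Of 24 genes of the mTORC1 and MYC control of ribosome synthesis, 1 was called, and it fell. Larp1, which binds the TOP motif of ribosomal protein mRNAs, read 12.65, 12.87, 12.87 and 12.41 in the controls and 11.72, 12.00, 11.81 and 11.79 in the DDE livers. The groups did not overlap, and Larp1 fell by 0.87 (SE 0.12, limma adjusted p = 0.0184). Its call ended without control 2, control 3, DDE 1 or DDE 3 (adjusted p = 0.0511 to 0.0575). Mtor itself differed by 0.08 and Myc by 0.13, both with signals near 8.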

How the data were processed

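RNA was labelled with Cy3 per the labels' protocols. The authors deposited 1 value per probe and array on a log2 scale for 42957 probes. How the scans were background-corrected and normalized is not stated in the sources used here, and the 8 arrays had nearly the same distribution. Probes were named by the supplied annotation table, in which 33009 probes had 1 symbol, 9948 had none and 0 had several. Probe sequences and genome positions were not used here. Probes designed on laboratory mouse sequence may bind Mus spretus transcripts, or pseudogene and paralog transcripts, unequally, and several probes of a gene may share sequence.

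DDE was compared with control in limma 3.58.1 (lmFit and eBayes, R 4.3.3) on the values as deposited, 4 arrays per group, no covariate, two-sided, with Benjamini-Hochberg adjustment over all probes and a threshold of 0.05. The procedure was tested on simulated data. The number of arrays limits the precision, and p-values measure the spread between these 8 samples. Stained spots were those whose neighbourhood of 7 rows by 5 columns had a median deviation beyond 0.3. The rows and columns were inferred from the feature numbers, and no scan was seen. A fold is a lower bound where a value of the dimmer group was at background or a value of the brighter group lay within 0.5 of the top of the scale. It is a bound with respect to these limits only, and the error of the estimate and the alternatives can take it lower.

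The members and gene lists were chosen with earlier results of these data known. Named were every called member probe, the 5 largest rises and falls, the 5 highest and lowest means, discordant genes, Rps6, Rplp0, Rpsa, Rps4x and Rpl10, and called genes of the lists (up to 4 each by size, to which Eif3e was added among the initiation factors after its values were seen). Other names were added after their values were seen. Alternatives were array weights, cyclic loess, quantile normalization, 75th percentile centring, the fit without the dimmer probes, robust variance with an intensity trend, a replicate block, each array left out, stained spots left out, and, per gene, the mean of probes, the median of probe changes and the brightest probe away from the top of the scale. Removal of the trend along the array and leaving out control 4 with DDE 4 were added after seeing the data. Same-numbered arrays deviated together in 3 of 4 numbers only, so the numbers were not taken to pair the samples.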

Additional observations from a re-analysis of the deposited data

Results flagged for a closer look

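In groups of 4 arrays, 9 of the 90 groups checked (45 named probes) held 1 array far from the other 3, by Dixon's test at the 95% level. Chance alone flags about 1 in 20 groups where probes are not chosen by their values. These probes were partly named for their changes, disagreement or brightness, so their count cannot be set against that rate. On DDE 4, Rps14 read 15.47 (nearest other DDE value 15.94) and Rps4x read 13.34 (nearest 14.08). On DDE 3, Rpl37a read 15.10 (nearest 15.84) and Rpl8 read 12.74 (nearest 13.48). On DDE 2, Rpl41 read 15.75 (nearest 15.96). Among the controls, Rpl21 read 8.02 on control 1 (nearest 7.29), Rps28 read 15.46 on control 3 (nearest 15.18) and 1 probe of Rps25 read 8.74 on control 2 (nearest 7.25). The dim probe of Rpl14 read 13.76 on control 4 (next 7.50), in a stained patch.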

How the results depend on the processing

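Of 56 named probes under up to 18 alternatives each (1005 values), 850 kept their side of the threshold, 135 lost a call, 20 gained one and none changed sign with a call on either side. Calls over all probes numbered 1289, and 2140 with array weights, 1976 with the trend along the array removed, 511 with an intensity trend and robust variance, 9 with the replicate block (6458 at an unadjusted p under 0.05), and 332 to 1596 with 1 array left out. Of the 8 called ribosomal protein probes the count became 14 with array weights, 15 with cyclic loess, 19 with the trend along the array removed, 4 with robust variance, 0 with the replicate block (49 at an unadjusted p under 0.05) and 1 to 10 with 1 array left out. Of the 3 called genes it became 5, 7, 7, 1, 0 (19 unadjusted, replicate block) and 0 to 4 (16 unadjusted where it was 0, without control 2 or DDE 2). The 11 calls of the lists became 18 with array weights, 17 with the trend removed, 3 with robust variance, 0 with the replicate block (66 unadjusted) and 3 to 14 with 1 array left out. The median change of genes, 0.145, became -0.018 with the trend removed and 0.30 with the brightest probe away from the top of the scale, and that of probes, 0.20, became 0.042 with the trend removed. The causes were not tested. The replicate block leaves fewer degrees of freedom. With it none of these 56 probes was past the threshold, and the adjusted p was 0.0593 for Rpl17 probe 10890, 0.0673 for Eif6, 0.0827 for Eif2a and 0.0882 for Rps19. Same-numbered arrays correlated by 0.278, 0.269, 0.135 and -0.117 in their deviations from the group means, and control 4 correlated best with DDE 3 (0.222), so the numbers were not taken as pairs. Signals near 16 and near background limit what can be seen.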

Other observations

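Probes named for ribosomal protein pseudogenes are a set chosen after seeing the data. Of 85 such probes for 73 symbols, 75 were above background on all 8 arrays. The median change of the 85 was 0.20, beside 0.145 over all probes with a mean of 10 or more. In limma 3 of the 85 were called, 2 higher and 1 lower, beside 3.00% of all probes and 8.22% of those with a mean of 10 or more. A pseudogene probe may bind the transcript of the parent gene, and which transcript it bound was not tested.

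The largest of these changes was at 1 probe of Rpl7a-ps8, a copy named for Rpl7a. It read 7.44, 7.71, 7.45 and 7.86 in the controls and 11.49, 11.73, 11.71 and 11.86 in the DDE livers, at least 15.4-fold higher (limma adjusted p = 4.6e-05), and passed in 18 of 18 alternatives. The other probe of Rpl7a-ps8 differed by 0.44, and the 4 probes of Rpl7a itself by -0.83 to 0.58.

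Probes of the Rpl17 pseudogenes went both ways, as did those of Rpl17. Of the 7 probes above background on every array, 5 were higher and 2 lower. Rpl17-ps1 rose by 0.90 at 1 probe (limma adjusted p = 0.0346) and was 0.97 higher at the other (adjusted p = 0.0938). Rpl17-ps10 fell by 1.57 (limma adjusted p = 0.0348), from 10.51, 9.84, 9.81 and 9.14 to 8.53, 8.15, 8.32 and 8.03, and Rpl17-ps3 was at -1.34 (limma adjusted p = 0.0518). In each of these 4 probes the groups did not overlap. The call of the Rpl17-ps1 probe was kept in 7 of 18 alternatives, and that of Rpl17-ps10 in 10 of 18.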
